A study of Mus musculus with 2 samples.

Results

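The 9 cytotoxic effector genes described here (Gzma, Gzmb, Prf1, Nkg7, Ifng, Xcl1, Fasl, Klrk1 and Ctsw) were chosen by symbol from the deposited gene list, and all 9 are among its 55357 genes. They were measured by droplet single-cell RNA-seq in white blood cells from kidney tumours that RENCA cells, a mouse renal carcinoma line, formed in BALB/c mice. Sorting on CD45, a leukocyte surface protein, is stated in the series text only, and the records of the samples themselves call the cells epithelial. There were 2 libraries, 1 labelled SMYD3 knockdown, SMYD3 being a lysine methyltransferase, and 1 labelled WT. The mice themselves carried no stated modification, and the number of mice behind a library was not used here. With 1 library per label no test was possible, so each difference between labels is one between 2 libraries, and every interval is an exact 95% interval that covers counting error only.

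Cytotoxic T cells and natural killer (NK) cells kill a target by releasing granules at the contact site. Perforin, encoded by Prf1, makes pores in the target membrane, and granzymes, the serine proteases encoded by Gzma and Gzmb, enter and act on the cell. Fas ligand (Fasl) kills through a death receptor, interferon gamma (Ifng) acts on macrophages, dendritic cells and tumour cells, and the chemokine XCL1 attracts XCR1-bearing dendritic cells. NKG2D, encoded by Klrk1, is an activating receptor for stress ligands on tumour cells.

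The library labelled SMYD3 knockdown held 95803321 unique molecules (UMIs) in 10186 barcodes and the library labelled WT 91523767 in 9265, and 22 barcode sequences occurred in both. After filtering, 8784 and 8079 cells were kept, the knockdown label being given first here and below. Cells were assigned by marker UMIs that included none of the 9 genes. The CD8 T gate (Cd3 genes with Cd8a or Cd8b1) held 43 and 37 cells, the other T gate (Cd3 genes without Cd8) 46 and 79, and the NK gate (Ncr1, Klre1, Klrb1c or Klri2) 20 and 33. The monocyte-macrophage gate held 5745 and 5827 cells, the neutrophil gate 1418 and 792, and the dendritic cell gate 148 and 204. Smyd3 could not be checked at this depth, since 30 and 51 ungated cells with tumour markers held 4 and 2 Smyd3 UMIs.

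Markers that the gates did not use were examined first. Every one of 9 further T cell markers was present in both T gates. A small number of gated cells carried RNA typical of antigen-presenting cells. In 0 and 2 CD8 T, 3 and 5 other T and 7 and 3 NK gate cells, at least 1% of UMIs came from Cd74, H2-Aa, H2-Ab1, H2-Eb1, Cst3 and Lyz2, while no remaining cell exceeded 0.455%. These cells supplied 67.4% and 27.8% of the UMIs of the NK gate. Values are therefore given for the whole gates and, as a choice made after the data were seen, for the gates without these cells, called purified gates below, which held 43 and 35 CD8 T, 43 and 74 other T and 13 and 30 NK cells. In the purified NK gate Trac had 0 UMIs, but the other 8 of the 9 further T cell markers were present (86 and 164 UMIs, 1731 and 1395 CPM), and so was Trdc of the gamma-delta T cell markers (13 and 9 UMIs in 11 of 13 and 6 of 30 cells). Of 12 further markers of NK cells and type 1 innate lymphoid cells, 11 and 10 were present (3683 and 3810 CPM). They stood at 1395 and 1615 CPM in purified CD8 T and 2715 and 2438 CPM in purified other T cells. These markers were read as 1 list, so NK cells were not separated from type 1 innate lymphoid cells. The 5 pancreatic acinar markers (Ctrb1, Prss2, Try5, Pnlip, Clps) summed to 674, 713 and 302 CPM (UMIs of a gene per 1000000 UMIs of the gate) in the purified CD8 T, other T and NK gates of the knockdown label and to 0 in those of the WT label. The 4 neutrophil markers summed to 1558 against 563 CPM in purified CD8 T, 867 against 552 in other T and 221 against 298 in NK cells. The part of either difference in the results below was not tested. Purification did not remove all myeloid RNA. The 6 macrophage markers summed to 2141 and 2479 CPM in purified CD8 T, 3193 and 3636 in other T and 2455 and 2636 in NK cells. In monocyte-macrophage cells they summed to 32578 and 32424 CPM. The 5 dendritic cell markers summed to 409 and 268, 365 and 434, and 805 and 1055 CPM in the same 3 purified gates.

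The 9 genes stood higher in the CD8 T and NK gates than in other T cells of the same library and, with 1 exception, were almost absent from myeloid cells. Intervals overlapped those of other T cells for Gzmb, Fasl and Ctsw in the whole NK gate of the knockdown label. They also overlapped for Fasl in the whole CD8 T gate of the WT label, so these orders are uncertain. Among 5745 and 5827 monocyte-macrophage cells, 8 of the 9 genes had between 0 and 9 UMIs, equal to at most 0.121 CPM. In the CD8 T gate the lowest of the 9 levels was 84.2 CPM (Prf1) in the knockdown label and 50.8 CPM (Fasl) in the WT label. At a threshold of 4-fold over the monocyte-macrophage gate, and counting only genes with at least 20 UMIs over both gates, 7 of 7 members were higher in the CD8 T gate of each library, where 10.5% and 8.31% of all genes tested were. The count was 8 of 8 in the NK gate of each library (8.17% and 8.86% of all genes) and 3 of 3 and 4 of 4 in the other T gate (9.63% and 8.12%). The purified gates gave the same counts, beside 10.5% and 8.81% of all genes for CD8 T, 8.37% and 9.32% for NK and 10.6% and 10.4% for other T cells. Apart from Klrk1, members reach 20 UMIs only through the lymphoid gate where they are high, so these counts had to come out complete and nothing is read from them. Members outside them had too few UMIs. The lymphoid gates together held between 65.1% and 94.8% of the UMIs of each of the other 8 genes in kept cells, but 34.7% and 30.2% of those of Klrk1.

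**Figure D1:**
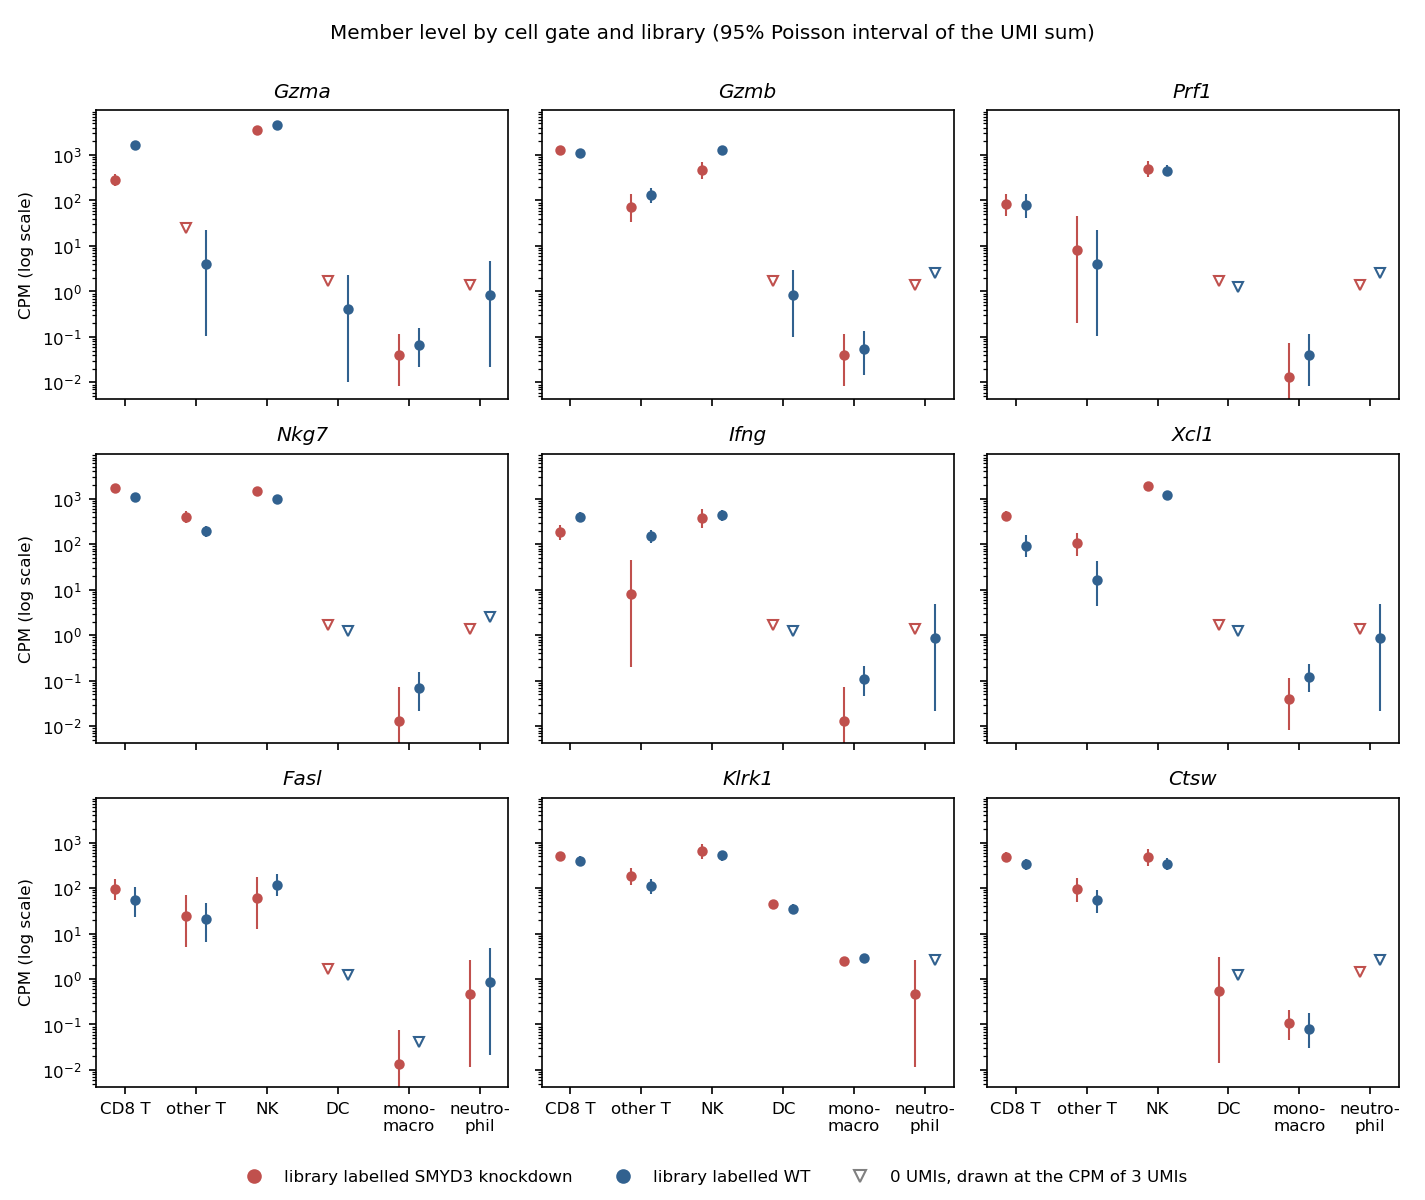
Level of each of the 9 genes (CPM, log scale) by cell gate, with the T and NK gates purified as described; points are 1 library each, bars are 95% Poisson intervals of the UMI sum, and open triangles stand at the CPM of 3 UMIs where a gate had 0. The CD8 T and NK gates lie orders of magnitude above monocyte-macrophage cells for all genes, while Gzma had 0 and 1 UMIs in other T cells, and Klrk1 alone has dendritic cell levels of 44.2 and 35.3 CPM.

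Promoter stretches are shown for the members the results turn on, the granule genes Gzma, Gzmb and Prf1 with Ifng, and Klrk1 as the member also found in myeloid cells. Each runs from 250 to 11 bases before the RefSeq start on the gene's strand (build GRCm38.p6). Capitals mark matches to the RUNX motif TGTGGT or the T-box motif AGGTGT on either strand.
Gzma (chr13:113100992-113101231, minus strand): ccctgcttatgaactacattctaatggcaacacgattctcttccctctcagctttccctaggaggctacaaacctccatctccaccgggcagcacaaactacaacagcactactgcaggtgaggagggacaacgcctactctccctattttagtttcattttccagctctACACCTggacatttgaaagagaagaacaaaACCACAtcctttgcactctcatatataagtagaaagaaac
Gzmb (chr14:56262345-56262584, minus strand): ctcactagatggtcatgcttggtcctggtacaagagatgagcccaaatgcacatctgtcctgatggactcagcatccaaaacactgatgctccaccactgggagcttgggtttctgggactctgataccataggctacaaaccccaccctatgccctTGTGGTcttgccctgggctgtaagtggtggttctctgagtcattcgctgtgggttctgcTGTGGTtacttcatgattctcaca
Prf1 (chr10:61297586-61297825, plus strand): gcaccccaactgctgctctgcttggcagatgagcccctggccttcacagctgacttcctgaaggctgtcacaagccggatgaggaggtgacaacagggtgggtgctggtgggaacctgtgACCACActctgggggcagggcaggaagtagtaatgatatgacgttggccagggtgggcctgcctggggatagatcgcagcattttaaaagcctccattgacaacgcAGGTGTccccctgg
Ifng (chr10:118440796-118441035, plus strand): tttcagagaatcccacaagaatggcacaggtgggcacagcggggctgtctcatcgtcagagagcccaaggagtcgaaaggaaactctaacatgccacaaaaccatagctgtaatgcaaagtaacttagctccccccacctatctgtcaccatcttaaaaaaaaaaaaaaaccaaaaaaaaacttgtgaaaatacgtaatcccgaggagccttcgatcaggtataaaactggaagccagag
Klrk1 (chr6:129623875-129624114, minus strand): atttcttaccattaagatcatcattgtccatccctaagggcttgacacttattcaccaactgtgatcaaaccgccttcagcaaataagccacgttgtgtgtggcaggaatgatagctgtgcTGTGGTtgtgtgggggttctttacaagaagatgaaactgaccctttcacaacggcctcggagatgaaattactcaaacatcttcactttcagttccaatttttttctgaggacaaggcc
The RUNX motif was found in 6 of the 8 members with a promoter in the table (Gzma, Gzmb, Prf1, Nkg7, Xcl1 and Klrk1) and in 13.6% of 32851 mouse promoters of the same length. Gzmb held 2 matches, at 93 to 88 and 34 to 29 bases before the start. The T-box motif was found in Gzma and Prf1 and in 11.5% of all promoters, and neither motif was found in the Ifng and Fasl windows. Among 4 further motifs, ETS (CAGGAAGT, 2.54% of promoters) was found in Prf1, Xcl1 and Fasl, AP-1 (TGACTCA, 4.35%) in Gzmb, STAT (TTCCNGGAA, 0.861%) in Nkg7, and CRE (TGACGTCA, 1.44%) in none of the 8. A match is a description of these letters and was not tied to binding. Ctsw was not in the table.

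Gzma encodes granzyme A, a tryptase-type protease of the granules (ENSMUSG00000023132, chr13:113093825-113100981, mm10). In the NK gate it had 190 UMIs (1247 CPM) in the knockdown label and 564 UMIs (3464 CPM) in the WT label, a ratio of 0.360 (0.304 to 0.425). In the purified gate the levels were closer, at 3501 and 4601 CPM, with a ratio of 0.761 (0.638 to 0.904). Purified NK cells had a median of 12 and 9 Gzma UMIs and a highest value of 43 and 101, so single cells of the 2 libraries overlapped widely. In CD8 T cells Gzma summed to 47 UMIs (283 CPM) and 247 UMIs (1395 CPM), a ratio of 0.203 (0.145 to 0.278). This rested on few cells, because only 7 of 43 and 8 of 37 CD8 T cells held any Gzma UMI and 2 WT cells held 153 and 78 of the 247, with 96.0% of the UMIs in 3 cells. Without the first of these the ratio was 0.473. Without both of them the sums were 47 and 16 UMIs (283 and 112 CPM), with the knockdown label higher, and without the 2 richest cells of each library they were 14 and 16 UMIs (ratio 0.804, 0.363 to 1.76), so no direction is given for Gzma in CD8 T cells. Other T cells had 0 and 1 Gzma UMIs.

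Granzyme B (Gzmb, ENSMUSG00000015437, chr14:56258838-56262260) cleaves caspases and other substrates after aspartate. The CD8 T gate held 218 and 162 UMIs (1311 and 915 CPM, ratio 1.43, 1.16 to 1.77), in 21 of 43 and 18 of 37 cells. After purification the ratio was 1.21 (0.981 to 1.49), so the CD8 T levels were not told apart. The 2 WT cells richest in Gzma also held 41 and 35 of the 162 WT Gzmb UMIs. Without these 2 the purified ratio was 1.75 (1.36 to 2.28), and without the 2 richest cells of each library it was 1.26 (0.962 to 1.67). NK cells went the other way, with 24 and 153 UMIs in the whole gate (158 and 940 CPM, ratio 0.168, 0.104 to 0.259). The purified NK gate kept a lower Gzmb level in the knockdown label, at 463 against 1259 CPM (ratio 0.368, 0.226 to 0.573). There, 7 of 13 cells (highest 7 UMIs) and 20 of 30 cells (highest 31 UMIs) were positive. With each cell thinned to 1000 UMIs, 6 of 13 and 13 of 30 purified NK cells held a Gzmb UMI. These shares were 46.2% and 43.3% (intervals 19.2% to 74.9% and 25.5% to 62.6%), so the share of positive cells did not separate the libraries. The other T gate had 9 and 32 UMIs (ratio 0.610, 0.256 to 1.31), too few to separate the libraries.

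Perforin (Prf1, ENSMUSG00000037202, chr10:61297833-61304680) was sparse in CD8 T cells, with 14 and 12 UMIs spread over 12 and 8 cells and no cell above 2 (ratio 1.24, 0.534 to 2.94). It was found in 10 of 13 and 19 of 30 purified NK cells, at 503 and 451 CPM (25 and 53 UMIs, ratio 1.12, 0.665 to 1.83). In the whole NK gate the ratio was 0.605 (0.373 to 0.964), so its direction depended on the antigen-presenting cells. The other T gate had 1 Prf1 UMI in each library.

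Nkg7 encodes a granule membrane protein needed for degranulation (ENSMUSG00000004612, chr7:43437073-43438249). It was the member detected in most CD8 T cells, in 43 of 43 and 32 of 37, with medians of 5 and 3 UMIs per cell and highest values of 35 and 15. Its sums were 285 and 172 UMIs (1714 and 971 CPM), a ratio of 1.77 (1.46 to 2.15), and 1.57 (1.29 to 1.91) after purification. Without the richest cell of each library the purified ratio was 1.44 (1.17 to 1.78), inside 1.5-fold. Unthinned, 100% and 85.7% of purified CD8 T cells held Nkg7, against 1 of 5745 and 5 of 5827 monocyte-macrophage cells. Thinned to 1000 UMIs per cell, 72.1% and 47.1% of purified CD8 T cells still held an Nkg7 UMI (intervals 56.3% to 84.7% and 29.8% to 64.9%), against 0 of 5716 and 0 of 5798 monocyte-macrophage cells (upper limits 0.0645% and 0.0636%). Median depth was 3448 and 3350 UMIs in those CD8 T cells and 12148 and 11667 in monocyte-macrophage cells. The other T gate also had more Nkg7 in the knockdown label (49 and 47 UMIs, 298 and 132 CPM, ratio 2.26, 1.48 to 3.45), from 11 of 46 and 15 of 79 cells. Of these sums, 30 and 26 UMIs lay in 3 cells of each library. Thinned to 1000 UMIs, 5 of 46 and 11 of 77 other T cells held an Nkg7 UMI. These shares, 10.9% and 14.3% (intervals 3.62% to 23.6% and 7.35% to 24.1%), did not separate the libraries. In NK cells the ratio was 0.686 (0.508 to 0.920) in the whole gate and 1.48 (1.09 to 2.01) in the purified gate, where all 13 and 28 of 30 cells were positive.

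Ctsw encodes cathepsin W, a cysteine protease made by cytotoxic lymphocytes (ENSMUSG00000024910, chr19:5465043-5468507, overlapping Fibp on the other strand by 9 bases). CD8 T cells had 81 and 53 UMIs (487 and 299 CPM), a ratio of 1.63 (1.14 to 2.35) that moved inside 1.5-fold, to 1.45 (1.01 to 2.11), after purification. It was present in 34 of 43 and 23 of 37 CD8 T cells, with no more than 9 UMIs in any. The NK ratios were 0.617 (0.366 to 1.02) whole and 1.42 (0.819 to 2.41) purified, and neither interval excluded 1.

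Among the secreted and surface members, Ifng (ENSMUSG00000055170, chr10:118441046-118445892, overlapped on the same strand over 2722 bases by Gm49751) was lower in both T gates of the knockdown label. Reads from the stretch shared with Gm49751 may be ambiguous between the genes, and the effect on the Ifng UMIs was not tested. CD8 T cells held 31 and 61 UMIs (186 and 344 CPM, ratio 0.541, 0.340 to 0.847), in 15 of 43 and 20 of 37 cells, none with more than 9. The other T gate held 5 and 37 UMIs (30.4 and 104 CPM, ratio 0.293, 0.0899 to 0.747), and 4 of the 5 knockdown UMIs came from 1 cell removed by purification, which left 1 UMI in 43 cells against 37 UMIs in 74 (ratio 0.0535, 0.00132 to 0.317). Purified NK cells did not separate the libraries, with 19 and 51 UMIs and 382 and 434 CPM (ratio 0.882, 0.492 to 1.52). Their sums leaned on single cells, since 1 cell held 11 of the 19 and another 17 of the 51. The whole NK gate had a ratio of 0.398 (0.222 to 0.686).

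Xcl1 (ENSMUSG00000026573, chr1:164931644-164935527) showed the widest CD8 T difference upwards. The CD8 T gate held 71 and 14 UMIs (427 and 79.0 CPM), a ratio of 5.40 (3.02 to 10.4), and 4.55 (2.54 to 8.75) after purification. The number of positive cells was close, 12 of 43 and 8 of 37, and the gap lay in the amount per positive cell, with medians of 3 and 1 and highest values of 20 and 4 UMIs. Without the richest cell of each library the ratio was 5.52 (2.77 to 12.2). The other T gate had 13 and 4 UMIs in 5 and 4 cells (ratio 7.04, 2.18 to 29.7), which is fewer than the 20 UMIs set for counting. In the purified NK gate Xcl1 stood at 1912 and 1191 CPM (95 and 140 UMIs, ratio 1.61, 1.22 to 2.10), but 1 knockdown cell held 34 of the 95 UMIs and the ratio without it was 1.08. The whole-gate NK ratio was 0.845 (0.657 to 1.08). The noncoding gene Gm20743 covers Xcl1 on the opposite strand, and whether this overlap affected the Xcl1 UMIs was not tested.

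The receiver of this chemokine was present in the same tumours. Xcr1 had 0 UMIs in all 3 purified lymphoid gates, while dendritic cells with at least 2 Xcr1 or Clec9a UMIs (95 and 126 cells, a subset drawn after the data were seen with Xcr1 itself) held 560 and 643 Xcr1 UMIs.

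Fasl (ENSMUSG00000000817, chr1:161780689-161788495) was the member with the fewest UMIs. The CD8 T gate held 16 and 9 (ratio 1.89, 0.788 to 4.86), in 12 of 43 and 6 of 37 cells, and the NK gate 5 and 15 (ratio 0.356, 0.101 to 1.03). A difference between the libraries was not detectable at this depth in any lymphoid gate.

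**Figure D2:**
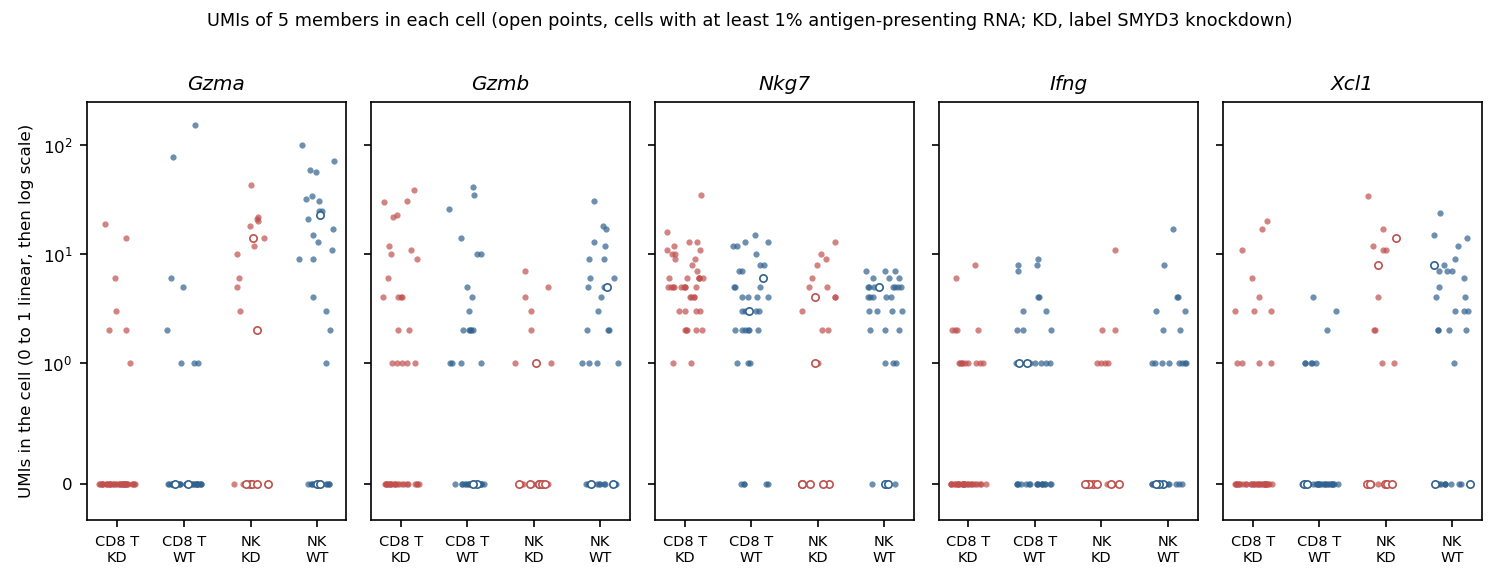
UMIs of Gzma, Gzmb, Nkg7, Ifng and Xcl1 in each cell of the CD8 T and NK gates (linear from 0 to 1, then log scale), with 1 point per cell and open points for cells with at least 1% antigen-presenting RNA. The CD8 T Gzma total of the WT label comes largely from 1 cell with 153 UMIs, and Nkg7 is above 0 in all 43 CD8 T cells of the knockdown label.

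Klrk1 (ENSMUSG00000030149, chr6:129610323-129623864) differed from the other members in its distribution over cell types. Its level was 493 and 344 CPM in the CD8 T gate (82 and 61 UMIs, ratio 1.43, 1.02 to 2.03), which became 493 and 402 CPM (ratio 1.23, 0.869 to 1.74) after purification. In purified NK cells it was 644 and 519 CPM (ratio 1.24, 0.783 to 1.93), and the CD8 T and NK intervals overlapped in each library. Of all its UMIs in kept cells, 57.9% and 59.2% lay in myeloid gates.

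In dendritic cells Klrk1 had 80 and 86 UMIs (44.2 and 35.3 CPM, ratio 1.25, 0.912 to 1.72), carried by 45 of 148 and 54 of 204 cells. Thinned to 1000 UMIs, 2.70% and 3.45% of dendritic cells held a Klrk1 UMI (intervals 0.741% to 6.78% and 1.40% to 6.98%), against 0.227% and 0.293% of monocyte-macrophage cells (0.121% to 0.389% and 0.171% to 0.469%). The medians of depth were alike, 11138 and 11057 UMIs in dendritic cells and 12148 and 11667 in monocyte-macrophage cells. Monocyte-macrophage cells held 184 and 212 Klrk1 UMIs (2.44 and 2.86 CPM) in 144 and 145 cells, and neutrophils 1 and 0. Among the Klrk1-positive dendritic cells, 0 of 45 and 2 of 54 had a UMI of another member. A UMI of the Cd3 or NK gate markers was seen in 4 and 7. The dendritic cell gate leaves out cells with 2 Cd3 or 2 NK marker UMIs, so that scarcity was partly set by the gate and nothing is read from it. By subset, dendritic cells with at least 2 Ccr7 UMIs stood at 98.3 and 51.8 CPM (13 of 36 and 14 of 51 cells) and those with Xcr1 or Clec9a at 30.2 and 30.1 CPM (27 of 95 and 31 of 126 cells). Hcst, an adaptor through which NKG2D signals, was seen without thinning in 7 of 45 and 7 of 54 Klrk1-positive dendritic cells.

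**Figure D3:**
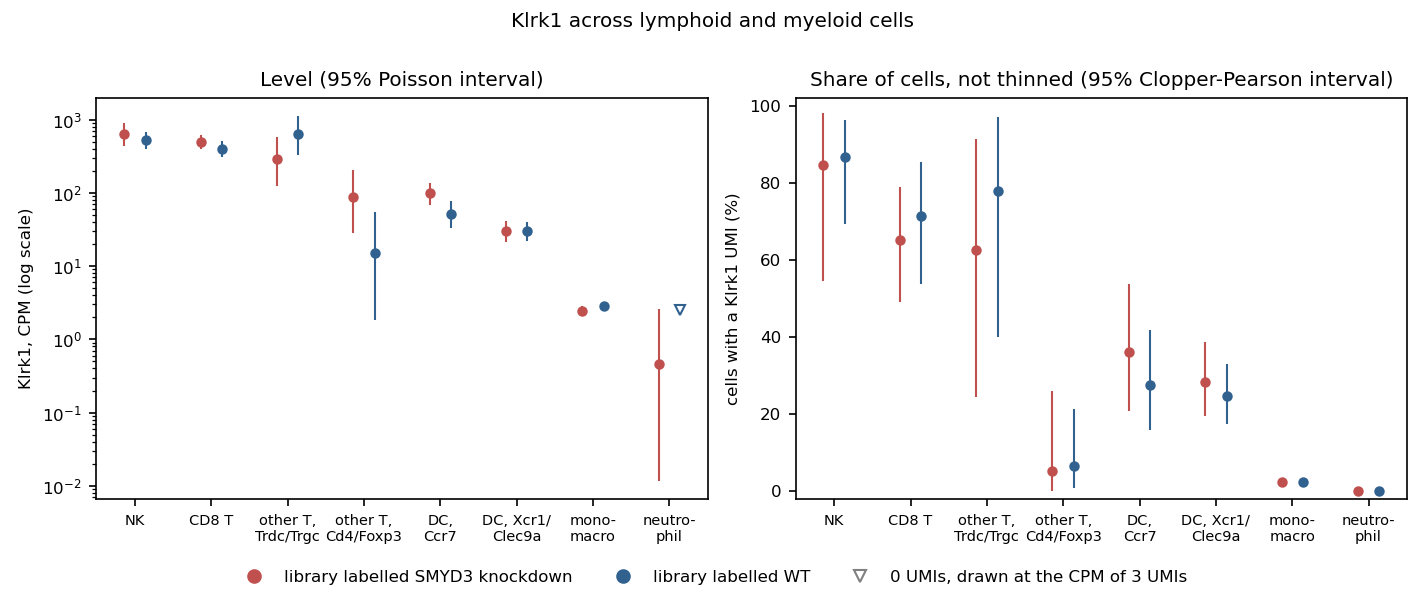
Klrk1 level (left, CPM, log scale, 95% Poisson interval) and share of cells with a Klrk1 UMI (right, percent, not thinned, 95% Clopper-Pearson interval) in the purified NK and CD8 T gates, subsets of other T cells, dendritic cell subsets, monocyte-macrophage cells and neutrophils. Both dendritic cell subsets lie below NK and CD8 T cells and above the monocyte-macrophage cells at 2.44 and 2.86 CPM.

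Counted together, the 9 genes did not differ between the libraries in 1 direction in T cells. In the CD8 T gate 6 of 9 members were at least 1.5-fold apart, 4 higher (Nkg7, Xcl1, Fasl, Ctsw) and 2 lower (Gzma, whose direction rests on 2 WT cells as given above, and Ifng) in the knockdown label, while 31.9% of 3012 genes tested were that far apart. The median difference of the 9 on the log2(CPM + 5) scale was 0.52, beside -0.02 for all genes tested. After purification the count was 5 of 9 (28.8% of 2782 genes) and the median 0.29. In the other T gate 5 of 5 members with enough UMIs were 1.5-fold apart, with Nkg7, Klrk1 and Ctsw higher and Gzmb and Ifng lower (29.9% of 4418 genes), and Gzma, Prf1, Xcl1 and Fasl did not reach 20 UMIs.

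The NK values depended on purification. As gated, all 9 members were lower in the knockdown label, except that Klrk1 moved from 0.902 to 1.03 when scaled by the median ratio of genes. Of the 9, 6 were lower by at least 1.5-fold, where 27.1% of 2773 genes were that far lower and 41.9% that far apart in either direction, and the median was -0.71 for members and -0.18 for all genes. In purified NK cells 2 of 8 members were 1.5-fold apart, Xcl1 higher and Gzmb lower, against 35.8% of 1513 genes, with medians of 0.23 and -0.08. Members that reach the 20-UMI minimum through the library where they are high are favoured by it, so these counts describe the genes and support no direction.

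Members found in the same cell were counted next. A CD8 T cell had UMIs of a median of 4 and 4 of the 9 genes, a purified NK cell 6 and 6, and an other T cell 1 and 0, whereas the median in dendritic cells, monocyte-macrophage cells and neutrophils was 0. No CD8 T cell of the knockdown label lacked all 9, and 12 of 13 and 24 of 30 purified NK cells held at least 5. In purified CD8 T cells Gzma and Gzmb met in 6 and 7 cells, where 3.42 and 4.11 would if the genes were unrelated at these numbers of positive cells. Gzmb and Prf1 met in 9 and 5 cells (5.86 and 4.11 if unrelated), while Gzmb and Xcl1 met in 3 and 2 (5.86 and 4.11 if unrelated). In purified NK cells granzyme and Prf1 UMIs met in 8 of 13 and 18 of 30 cells. Ifng and Xcl1 were found together in 5 and 5 purified CD8 T cells (4.19 and 4.11 if unrelated). These overlaps depend on depth per cell and were not tested.

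**Figure D4:**
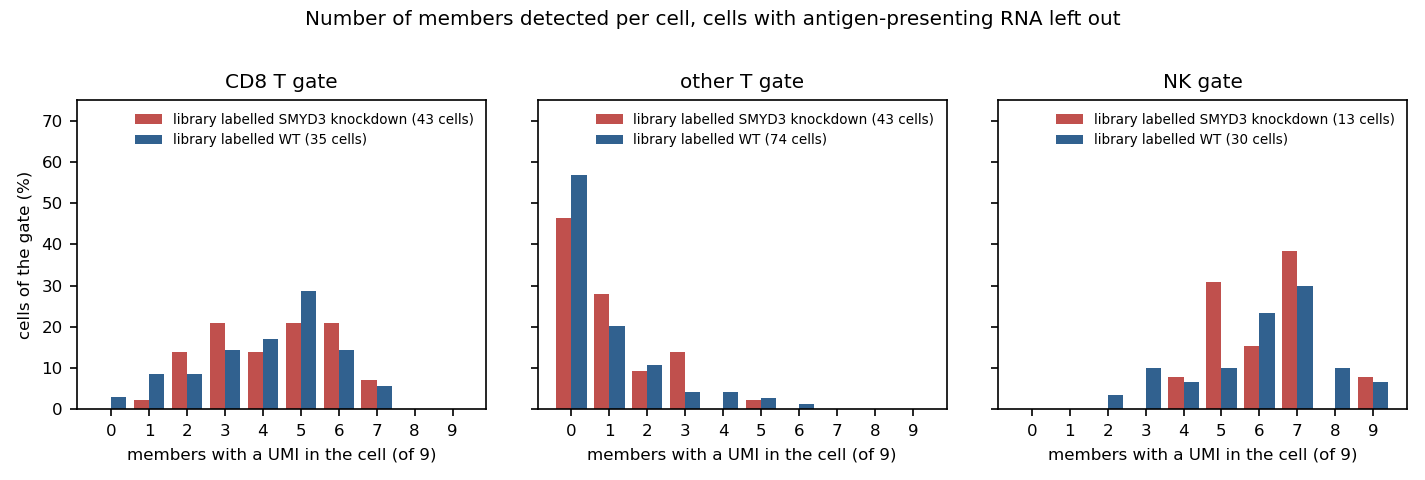
Percent of cells (vertical axis) by the number of the 9 genes with at least 1 UMI in the cell (horizontal axis), for the purified CD8 T, other T and NK gates of each library. Other T cells pile up at 0 (46.5% and 56.8% of cells), CD8 T cells centre on 4 and NK cells on 6.

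The other T gate mixed several kinds of cell, so its members were also read in subsets drawn after the data were seen. Cells with at least 2 UMIs of Trdc, Trgc1, Trgc2 or Trgc4, the constant genes of the gamma-delta receptor, numbered 8 and 9. Klrk1 was found in 5 and 7 of them (291 and 636 CPM), and each of the other 8 members in at most 1 cell. Among cells with Cd4 or Foxp3 (19 and 31), Klrk1 was present in 1 and 2, Nkg7 in 5 and 7, and Gzmb in 0 and 4. All 13 knockdown Xcl1 UMIs came from the 16 cells with neither set of markers, and 25 of the 37 WT Ifng UMIs from the 34 such cells. Foxp3, the regulatory T cell factor, was found in 5 and 17 cells outside the gamma-delta set, which held 0 UMIs of Gzma, Prf1, Xcl1, Fasl and Klrk1 in both libraries. The part of this mix of subsets in the other T ratios was not tested.

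Related genes were described from lists set down with the gates, in purified cells. Of the other granzymes, Gzmk was the one with enough UMIs to compare, at 409 and 342 CPM in CD8 T cells (68 and 51 UMIs, ratio 1.20, 0.820 to 1.76), and Gzmc had 7 and 8 UMIs in NK cells. Of 10 genes for loading, release and protection from granules, 6 passed 20 UMIs in CD8 T cells and 0 were 1.5-fold apart (28.8% of all genes), whereas in the whole gate Cst7 was higher and Ctsc lower (31.9%). Srgn, the proteoglycan that packs granzymes, was higher in knockdown-label NK cells (1570 and 1038 CPM, ratio 1.51, 1.12 to 2.03). Granzyme B inhibitor Serpinb9 was on the other side of 1 in NK cells (9 and 38 UMIs, 181 and 323 CPM, ratio 0.560, 0.238 to 1.18), where 35.8% of all genes were 1.5-fold apart. In other T cells it had 11 and 7 UMIs (ratio 3.11, 1.10 to 9.47), under the 20-UMI minimum.

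Among receptors related to NKG2D, 1 of 7 measured in CD8 T cells was 1.5-fold apart, beside 28.8% of all genes. This was Cd226, an activating adhesion receptor, at 331 and 154 CPM (ratio 2.15, 1.30 to 3.66), and it was higher in other T cells as well (170 and 61.4 CPM, ratio 2.77, 1.36 to 5.78). The whole CD8 T gate added Klrd1 and Crtam as higher and Tyrobp as lower. The adaptors Hcst (ratio 0.744, 0.524 to 1.05) and Tyrobp (1.20, 0.531 to 2.77) did not separate the libraries in CD8 T cells. The 5 NKG2D ligand genes passed 20 UMIs in no lymphoid gate, and in monocyte-macrophage cells 5 of 5 passed and 0 were 1.5-fold apart (13.7% of 17165 genes).

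The chemokines released with XCL1 did not follow it as a group. Ccl3 was higher in CD8 T (614 and 362 CPM, ratio 1.70, 1.21 to 2.40) and NK cells (946 and 544 CPM, ratio 1.74, 1.17 to 2.57), but its ratio in the whole NK gate was 1.05. Ccl5 was close in CD8 T cells (5239 and 5079 CPM, ratio 1.03, 0.935 to 1.14). Ccl4 was lower in NK cells (2515 and 4006 CPM, ratio 0.628, 0.511 to 0.766), close in CD8 T cells (3038 and 3116 CPM) and higher in other T cells (ratio 2.67, 2.11 to 3.39). Its whole-gate levels were 1240 and 3489 CPM in NK and 1118 and 746 CPM in other T cells.

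Genes of the interferon gamma pathway were read in the cells that receive it. In monocyte-macrophage cells 11 of 12 listed genes passed 20 UMIs and 2 were at least 1.5-fold apart, both lower in the knockdown label (of all genes 11% were lower and 2.71% higher). They were the chemokine Cxcl9 (2.32 and 6.12 CPM, 175 and 454 UMIs, ratio 0.380, 0.317 to 0.453) and the GTPase Gbp2 (5.46 and 8.35 CPM, ratio 0.654, 0.576 to 0.742). The Cxcl9 UMIs sat in 48 and 67 of the 5745 and 5827 cells. Dendritic cells went the other way for Cxcl9 (69.1 and 36.5 CPM, 12 and 21 cells, ratio 1.89, 1.43 to 2.51), the 1 gene apart of 11 that passed there, beside 13.8% of 9634 genes apart, 5.14% higher and 8.63% lower.

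In CD8 T cells the widest ratio among listed genes with at least 20 UMIs was that of Pdcd1, the PD-1 checkpoint receptor. It had 55 UMIs in 20 of 43 purified cells against 3 UMIs in 3 of 35 (331 and 20.1 CPM, ratio 16.5, 5.34 to 82.2). Ctla4 stood at 223 and 147 CPM (ratio 1.51, 0.867 to 2.69), and the other 4 checkpoint genes did not pass 20 UMIs in CD8 T cells. Thus 2 of 2 measured there were at least 1.5-fold higher, beside 13.6% of all genes. In other T cells 2 of 3 were that far lower, Ctla4 among them, and 0 higher, beside 16.1% of all genes lower. Of 7 transcription factors measured in CD8 T cells 2 were higher and 0 lower, beside 13.6% of all genes higher. They were Tox, a factor of chronically stimulated T cells, at 198 and 73.7 CPM (33 and 11 UMIs, ratio 2.69, 1.33 to 5.91), and Tcf7, a factor of naive and memory T cells, with 17 and 9 UMIs (ratio 1.70, 0.715 to 4.32), whose interval included 1. Il18r1, a receptor chain for IL-18, was at 283 and 87.1 CPM (ratio 3.25, 1.73 to 6.54). In NK cells 3 of 6 measured transcription factors were at least 1.5-fold lower and 0 higher, beside 23% of 1513 genes lower. Runx3 was among them, at 262 and 587 CPM (13 and 69 UMIs, ratio 0.446, 0.226 to 0.813). Of 7 inducing cytokine and receptor genes measured in dendritic cells, 1 was at least 1.5-fold higher and 2 were lower, beside 5.14% and 8.63% of all genes. Among them, Il12b stood at 40.3 and 60.7 CPM (11 and 13 cells, ratio 0.664, 0.495 to 0.885) and Il15ra at 49.2 and 31.6 CPM (ratio 1.56, 1.13 to 2.14).

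Over 14 points (7 gates in 2 libraries), the genes most like the mean of the 9 members on the log2(CPM + 5) scale, among 5710 genes, were Klrc1, Samd3, Klrc2, Sh2d1a, Tnfsf10, Klrd1, Gm2682, Cst7, Ms4a4b and Prkcq, with Pearson r from 0.961 to 0.998. The points of 1 library share its depth, and no test was made. Klrc1 and Klrc2 are near copies, so their UMIs may be split unevenly. Against the mean of the other 8, the members themselves ran from 0.892 (Gzma) to 0.987 (Fasl).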

How the data were processed

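The authors deposited 1 matrix of whole UMI counts per gene and barcode for both libraries, made with Cell Ranger 7.1.0 on mm10 per the submitters' processing notes. Barcodes were assigned to libraries through the deposited library table, the annotation release is stated in no source used here, and columns of other samples numbered 0. Cells were kept with at least 200 genes, 500 UMIs and at most 20% mitochondrial UMIs, and the highest Scrublet scores (scanpy 1.11.5) were removed at 0.8% per 1000 cells, since the caller's own threshold marked 0 cells.

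A T, NK or B gate needed 2 lineage UMIs, and gated cells rich in macrophage or neutrophil markers (at least 1/4 of the myeloid median) were set aside as mixed. UMIs were summed per gate and library. Intervals are exact at 95% (Poisson for sums, Clopper-Pearson for shares, conditional binomial for ratios). No p-value was computed, because each label has 1 library. The summing and interval code was tested on simulated data. Genes with at least 20 UMIs over the groups compared were counted as tested. Named list genes were up to 4 per list with most lymphoid UMIs and those 1.5-fold apart with an interval excluding 1, of which some are given only as counts. Members and lists were chosen with earlier results of these data known. Of the 55357 gene identifiers, 94.1% were found in GENCODE vM21, the source of gene positions. Promoters are from RefSeq. One gene of the lists is not reported here.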

Additional observations from a re-analysis of the deposited data

How the results depend on the processing

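No paired analysis was possible because each label has 1 library. Of 345 member ratios recomputed under other settings, 312 stayed inside the counting interval, 32 left it and 1 with an interval excluding 1 and a 1.5-fold difference changed direction, Prf1 in NK cells, from 0.605 to 1.12 in the purified gates. Nkg7, Xcl1, Klrk1 and Ctsw also crossed 1 in purified NK cells, from 0.686, 0.845, 0.902 and 0.617 to 1.48, 1.61, 1.24 and 1.42. Under other settings Xcl1 and Klrk1 in NK and Fasl in other T cells crossed 1, each inside its interval. Thinning each cell to 1000 UMIs left fewer members above 20 UMIs, so that counts of members 1.5-fold apart became 3 of 5 in CD8 T, 1 of 1 in other T and 2 of 8 in NK cells, and counts of members 4-fold over monocyte-macrophage cells, knockdown label first, became 4 of 4 and 3 of 3 in CD8 T, 0 of 0 and 1 of 1 in other T and 4 of 4 and 5 of 5 in NK cells. A mean over cells in place of the sum gave 3 of 9 NK members 1.5-fold apart, and purification 2 of 8, instead of 6 of 9. Needing 3 lineage UMIs gave 7 of 7 members 4-fold higher in WT-label other T cells. The cause was not tested. The other 96 of 108 counts stayed within 1.5 times, among them all those without doublet removal, with at most 10% mitochondrial UMIs and without shared barcode sequences. Of 594 shares of cells with a UMI, 549 stayed inside their interval, and of 54 shares of kept cells per gate 46 did. The 8 that left it came from needing 1 lineage UMI, which gave 0.501% and 0.631% of kept cells in the NK gate and 1.36% of the WT label in other T, from keeping mixed cells (0.774% and 1.34% in other T) and from removing more of them (0.307% and 0.644% in other T and 0.297% of the WT label in CD8 T). Purification and leaving out the 1 or 2 richest cells were chosen after the data were seen. The NK gates of 20 and 33 cells limit every NK value.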

Other observations

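Some UMIs of the cytotoxic genes lay outside the gates compared. The 2 and 4 cells with both Cd3 and NK markers carried 53 and 43 Gzma UMIs (in 2 and 3 cells) and 35 and 18 Xcl1 UMIs. Cells without a gate held 37 Gzma UMIs in 3 of 1322 cells of the knockdown label, 23 of them in 1 cell, and 5 in 3 of 1054 cells of the WT label. Klrk1 was found in 15 and 29 cells without a gate. Doublets removed by score had held 34 and 19 Gzma UMIs and 44 and 45 Klrk1 UMIs.

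Monocyte-macrophage cells showed a few further differences in genes of the lists. Of all genes there, 11% were at least 1.5-fold lower in the knockdown label and 2.71% higher. Klrd1 and 1 gene of the inducing cytokines and receptors were that far higher, and 1 checkpoint gene was that far lower. Cd226 had 98 and 267 UMIs (1.30 and 3.60 CPM, ratio 0.361, 0.284 to 0.457) in 62 and 155 cells, the opposite side of 1 from its ratio in CD8 T and other T cells. Serpinb6b, a serpin known as a granzyme A inhibitor, had 229 and 394 UMIs (ratio 0.572, 0.484 to 0.675) in 55 and 86 cells, and Ccl5 357 and 551 UMIs (ratio 0.638, 0.557 to 0.730).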
